A study of Mus musculus with 6 samples.

Results

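The genes described here build and run the mitotic spindle: 43 named genes of mitotic kinases, kinetochores, the spindle checkpoint, spindle motors, cytokinesis and condensin, of which 42 were measured. They were chosen by gene symbol for known mitotic functions, by a rule that uses no measured value but was written with earlier results of these data known, and are 42 of the 18784 genes tested. The condensin gene Ncapg was not analysed here. Levels came from 3 arrays of lymphoma cells transduced with the short hairpin RNA Dhx9.1241 and 3 arrays of the same kind of cells with the control hairpin Rluc.713, which is named for Renilla luciferase. All 6 samples were cultured mouse lymphomas of the genotype Arf-/-Eu-myc/Bcl-2: the tumour suppressor gene Arf is absent and the oncogene Myc is expressed under an immunoglobulin enhancer together with the survival gene Bcl-2. They were grown on gamma-irradiated Arf-/- embryonic fibroblasts as feeder cells. The study asked which genes alter the response of such lymphomas to the BCL-2 family inhibitor ABT-737, but the labels name no drug on these arrays. Each group had 1 hairpin, so the loss of Dhx9 and any other effect of Dhx9.1241 cannot be told apart, and the labels do not state whether replicate arrays came from different cultures. The p-values therefore reflect only how far these 6 arrays vary, possibly for technical reasons.

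In mitosis, kinases such as Plk1 and the Aurora kinases drive chromosome condensation, spindle assembly and attachment of chromosomes to microtubules at the kinetochore. A checkpoint holds the cell before anaphase until every kinetochore is attached, after which the anaphase-promoting complex releases separase and the chromosomes part. Most of these genes are transcribed in the G2 and M phases of the cell cycle, so their RNA level in a culture follows the share of dividing cells. In RNA from a whole culture, fewer dividing cells and less RNA per cell cannot be told apart.

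The gene named by the hairpin fell. Dhx9, which encodes an RNA and DNA helicase, had log2 levels of 11.46, 11.43 and 11.38 on the Dhx9.1241 arrays and of 12.40, 12.48 and 12.36 on the Rluc.713 arrays, a level 1.99-fold lower (log2 change -0.99, adjusted p = 0.000129). Sample titles name another helicase gene, Dhx29, for the same arrays, which are therefore called by their hairpin here. Of 10 B cell markers listed, 9 were measured, and all 9 had a mean level at or above the median of all genes. None of the 9 passed the test by limma, though 8 were lower in the mean in Dhx9.1241 (median log2 change -0.07). Before adjustment, 2 of the 9 were lower and 1 higher at p under 0.05, beside 5.63% and 8.5% of all genes. Rluc.713 replicate 1 stood apart from the other arrays on the second principal component, at 16.7 against -5.61 to 3.62 on the Dhx9.1241 arrays and -5.29 to -4.81 on the other Rluc.713 arrays. Counts that change without it are given with and without it. Without it the log2 changes of Bub1b (-0.0062), Spc25 (-0.0243), Ncaph (-0.0154) and Mybl2 (-0.0159) turned negative, all with adjusted p of at least 0.847.

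1 of the 42 genes passed the test: Nuf2, a subunit of the NDC80 complex that binds microtubules at the kinetochore, fell in Dhx9.1241 cells. Its log2 levels were 11.19, 11.06 and 11.19 on the Dhx9.1241 arrays, against 11.60, 11.61 and 11.64 on the Rluc.713 arrays. The groups lay far apart, with every Dhx9.1241 value under every Rluc.713 value. The means were 11.15 ± 0.071 in Dhx9.1241 and 11.62 ± 0.020 in Rluc.713 (SD, n = 3 each). This was a log2 change of -0.47 with an SE of 0.053 and a 95% interval of -0.59 to -0.35, a level 1.39-fold lower with an adjusted p of 0.00342 by limma over all genes. By p-value Nuf2 (probe set 66977_at) stood at rank 88 of the 18784 genes. It passed in all 15 alternative fits, with log2 changes from -0.49 to -0.43 and adjusted p-values from 5.05e-05 to 0.0228.

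The count of 1 lower and 0 higher among 42 genes stands beside a background of 3.14% of all genes called in either direction, 1.07% lower and 2.07% higher. For the other 41 members the adjusted p was at least 0.104. Their 95% intervals ran no lower than -0.35 and no higher than 0.18 on the log2 scale, so that each of the 41 excluded a change of 1.3-fold or more either way. The call count depended on the fit. Top2a and Aspm were also called when dimmer genes, under the median level, were left out (adjusted p = 0.0372 and 0.0438), Top2a and Smc2 with array weights (0.0306 and 0.0485), and Top2a, Smc2 and Aspm with robust estimation and a variance trend (0.00841, 0.0232 and 0.0462). Those fits also called more of all genes lower, 4.07% without the dimmer genes, 2.89% with array weights and 2.48% with robust estimation, against 1.07%.

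**Figure D1:**
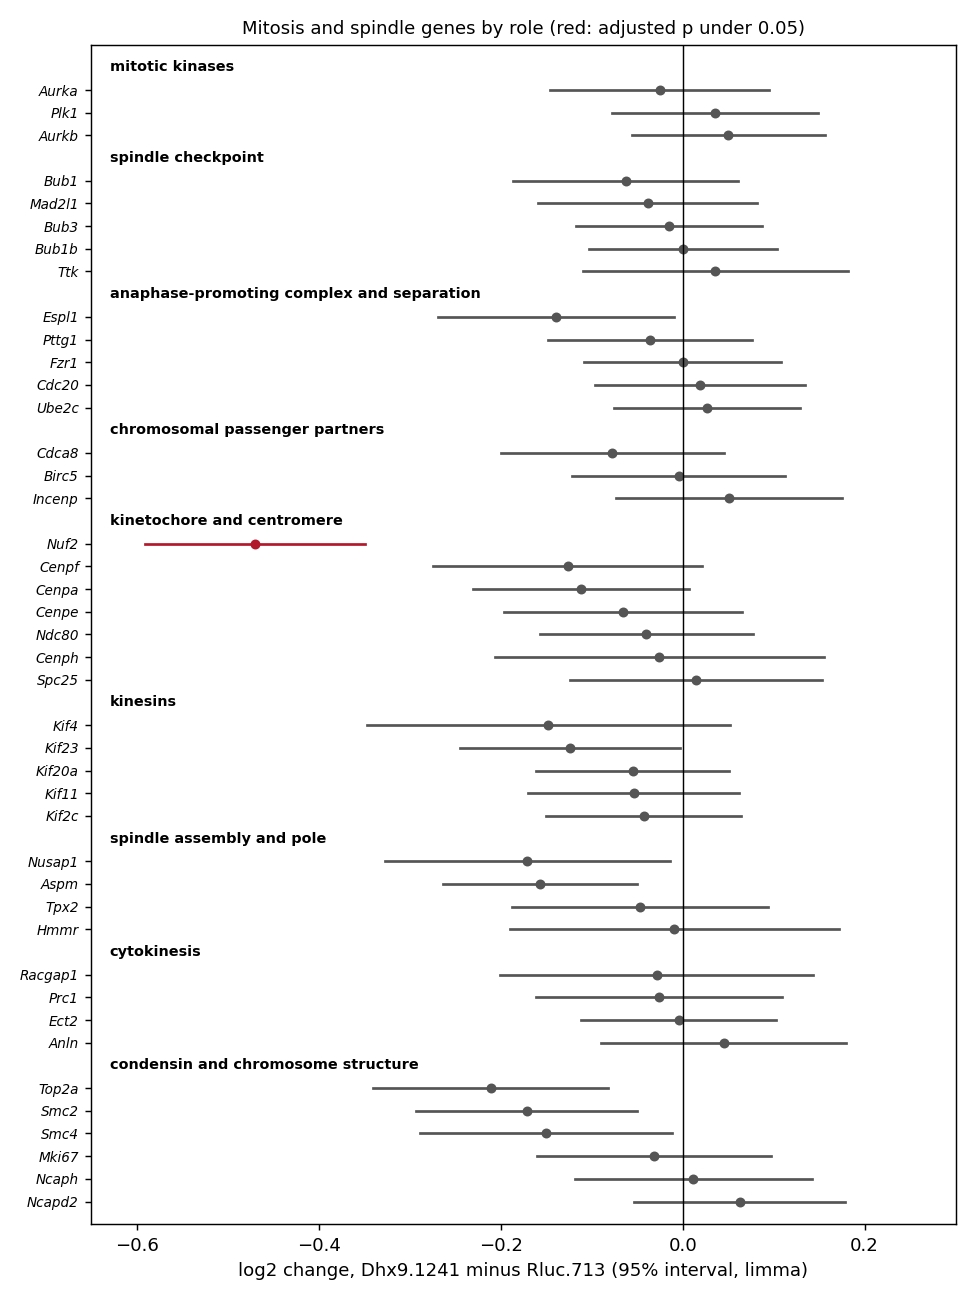
Log2 change of each of the 42 genes, Dhx9.1241 minus Rluc.713, on the x axis, by role; points are the fitted changes and lines their 95% intervals from limma. Nuf2, in red, is the gene with an adjusted p under 0.05, at -0.47; every other point lies between -0.21 and 0.06.

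Small differences leaned to the lower side. Of the 42 members, 30 were lower and 12 higher in the mean in Dhx9.1241 (71.4% lower, against 47.5% of all genes), and the median log2 change was -0.03, against 0.00 over all genes. Without Rluc.713 replicate 1, 33 members were lower in the mean, when the median over all genes was 0.02. The B cell markers leaned the same way, with 8 of 9 lower (88.9%) and a median of -0.07. With no adjustment, 8 members were lower at p under 0.05, beside 5.63% of all genes, and 0 were higher, beside 8.5%. All 3 Dhx9.1241 values lay below all 3 Rluc.713 values for 8 members, Nuf2, Top2a, Smc2, Aspm, Espl1, Kif23, Cenpa and Kif20a, beside 8.51% of all genes, and above them for Ncapd2 alone, beside 11.6% of all genes. All 42 members are among the brighter genes, those not under the median level. Of these brighter genes 13.4% lay wholly below and 18.2% wholly above. In a separate fit of the brighter genes alone, 10.5% were lower at p under 0.05 before adjustment. The counts changed when single arrays were left out. Without Rluc.713 replicate 1, 18 members lay below, while the share over all genes was then 17.0%, and without Dhx9.1241 replicate 3, 14 did, with 10.9% of all genes. Members lower at p under 0.05 numbered 11 without Rluc.713 replicate 1, when 8.92% of all genes were. They numbered 5 without Dhx9.1241 replicate 1 (5.04% of all genes), 3 without Dhx9.1241 replicate 2 (3.83%), 4 without Rluc.713 replicate 2 (4.31%) and 4 without Rluc.713 replicate 3 (4.35%). The members lying above numbered 4 without Dhx9.1241 replicate 2 (15.2% of all genes), 3 without Dhx9.1241 replicate 3 (17.6%), 2 without Rluc.713 replicate 2 (14.5%) and 4 without Rluc.713 replicate 3 (15.3%).

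The members were then followed from array to array. Their mean deviation from each gene's mean over the 6 arrays was -0.014, -0.068 and -0.001 on the log2 scale on the Dhx9.1241 arrays, and -0.028, 0.051 and 0.060 on the Rluc.713 arrays. The groups overlapped, since Rluc.713 replicate 1 lay below Dhx9.1241 replicates 1 and 3. On Dhx9.1241 replicate 2, 34 of the 42 genes were below their own mean, while 5 were on Rluc.713 replicate 3. The brighter genes, those with a mean not under the median and thus the 42 as well, deviated by 0.032, -0.008 and -0.004 on the Dhx9.1241 arrays and by -0.044, 0.011 and 0.013 on the Rluc.713 arrays. Rluc.713 replicate 1 was thus low for this larger set too, and its part in the members' values was not tested. The 9 B cell markers followed the members from array to array, with mean deviations of -0.016, -0.063 and 0.007 on the Dhx9.1241 arrays and of -0.048, 0.050 and 0.070 on the Rluc.713 arrays.

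**Figure D2:**
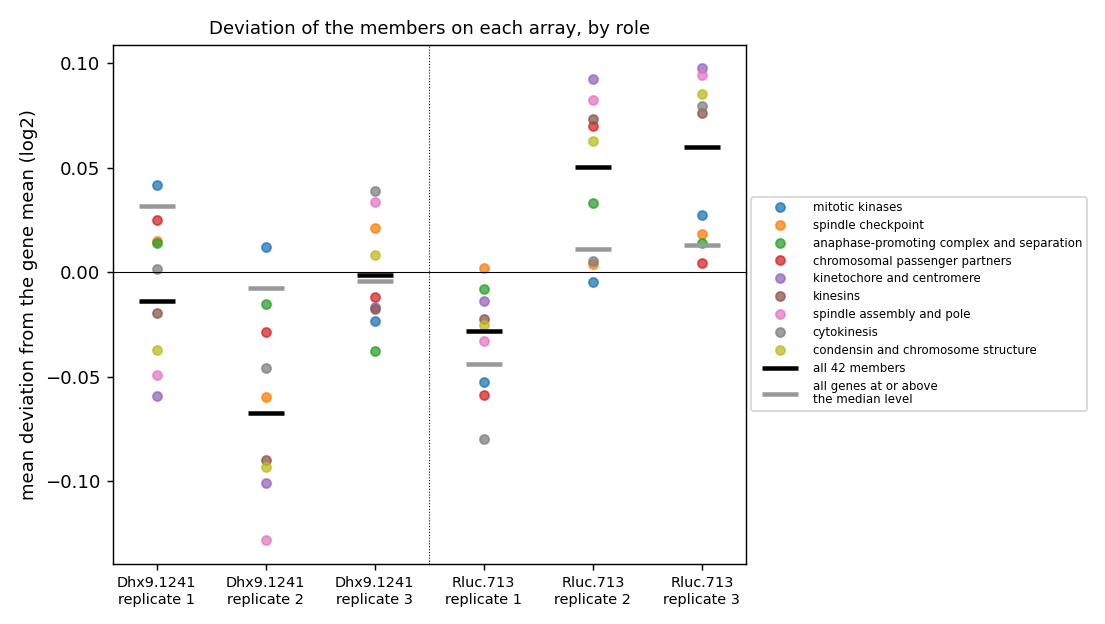
Mean deviation (y axis, log2) of the members of each role from their own means over the 6 arrays (x axis), with black bars for all 42 members and grey bars for the brighter genes, those not under the median of all genes. The black bars lie between -0.068 and -0.001 on the Dhx9.1241 arrays and between -0.028 and 0.060 on the Rluc.713 arrays, so the groups overlap.

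Promoter sequences are shown because mitotic genes are known to share regulatory elements, the CCAAT box bound by the factor NF-Y and the cell cycle genes homology region (CHR), bound by the DREAM and MYB-MuvB complexes, and because many members were low or high on the same arrays. RefSeq windows of 250 bases before to 50 bases after the start (build GRCm38.p6) were matched by symbol for 38 of the 43 listed genes. The 150 bases before to 30 bases after the start are printed 5′ to 3′ on the gene's strand, with every CCAAT on either strand in capitals, as well as TTTGAA and its variant TTCGAA. Shown are 3 subunits of the NDC80 complex, 3 genes with low unadjusted p-values (Top2a, Aspm and Espl1) and the kinase gene Plk1. They lie at chr1:169531435-169531614 (minus strand) for Nuf2, chr17:71526828-71527007 (minus) for Ndc80, chr2:69206184-69206363 (minus) for Spc25, chr11:99024160-99024339 (minus) for Top2a, chr1:139454623-139454802 (plus) for Aspm, chr15:102296143-102296322 (plus) for Espl1 and chr7:122159285-122159464 (plus) for Plk1.
Nuf2: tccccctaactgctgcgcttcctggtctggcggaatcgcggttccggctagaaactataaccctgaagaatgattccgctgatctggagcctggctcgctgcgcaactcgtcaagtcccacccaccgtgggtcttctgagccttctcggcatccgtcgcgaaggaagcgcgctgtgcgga
Ndc80: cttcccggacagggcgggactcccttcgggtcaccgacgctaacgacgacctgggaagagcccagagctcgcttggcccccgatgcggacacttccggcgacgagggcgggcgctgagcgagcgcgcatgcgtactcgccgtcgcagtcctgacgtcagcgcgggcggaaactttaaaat
Spc25: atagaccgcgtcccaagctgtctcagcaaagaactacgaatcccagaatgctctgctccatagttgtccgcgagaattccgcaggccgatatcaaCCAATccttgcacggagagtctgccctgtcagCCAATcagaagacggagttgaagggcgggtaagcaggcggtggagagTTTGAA
Top2a: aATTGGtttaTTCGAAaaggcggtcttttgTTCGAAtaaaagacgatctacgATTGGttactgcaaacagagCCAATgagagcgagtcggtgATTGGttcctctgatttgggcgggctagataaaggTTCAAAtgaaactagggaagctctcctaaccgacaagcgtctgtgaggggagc
Aspm: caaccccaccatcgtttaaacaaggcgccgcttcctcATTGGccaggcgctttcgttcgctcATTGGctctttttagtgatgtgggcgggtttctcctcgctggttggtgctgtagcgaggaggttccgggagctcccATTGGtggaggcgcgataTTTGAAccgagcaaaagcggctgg
Espl1: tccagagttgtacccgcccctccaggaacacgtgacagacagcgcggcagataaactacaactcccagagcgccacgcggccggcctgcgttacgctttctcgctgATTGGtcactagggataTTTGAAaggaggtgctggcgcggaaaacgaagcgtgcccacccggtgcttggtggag
Plk1: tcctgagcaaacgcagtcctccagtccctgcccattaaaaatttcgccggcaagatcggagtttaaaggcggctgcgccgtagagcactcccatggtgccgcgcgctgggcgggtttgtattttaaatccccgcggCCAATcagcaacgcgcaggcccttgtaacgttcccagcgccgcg

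Both elements were common in these promoters. In the whole window, CCAAT on either strand was found for 29 of 38 genes (76.3%), against 41.1% of the 27025 genes of the table. TTTGAA on either strand, the usual CHR letters, was found for 28 of 38 (73.7%), against 20.2%, and the variant TTCGAA for 3 (7.89%), against 1.8%. In the part before the start alone TTTGAA was found for 13 of 38 (34.2%), against 18.3% of all genes and 30.2% of other mitosis genes. TTCGAA reads the same on both strands, and matches of different motifs may share end bases. CCAAT together with TTTGAA or TTCGAA was held by 26 of 38 (68.4%), against 8.61% of all genes in the table. Of the 106 other mitosis genes with a window, 31 held such a pair (29.2%). Most TTTGAA matches of the members sat near the start site: 28 of 37 (75.7%) lay within 50 bases of it, against 25.3% of the matches in all promoters. Matches were counted in every window, so the sites of Bub3, Ect2 and Prc1, with 2 overlapping windows each, entered once per window. In Espl1, the gene of separase, the CCAAT match at -44 is followed by TTTGAA at -27, while TTTGAA begins at +25 in Spc25 and at +7 in Aspm. In Ndc80 it begins at +30, on the last printed base, and in Plk1 at +31, so neither is printed whole.

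The Nuf2 window held none of these letters on either strand. The same was true of Birc5, Mad2l1, Ncaph, Nusap1 and Pttg1. Among measured members the median log2 change was -0.03 for the 25 with both kinds of motif, -0.04 for the 6 with neither and -0.03 for the 6 with 1 kind. The motif groups did not separate by change, with ranges of -0.21 to 0.06, -0.47 to 0.01 and -0.07 to 0.05.

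**Figure D3:**
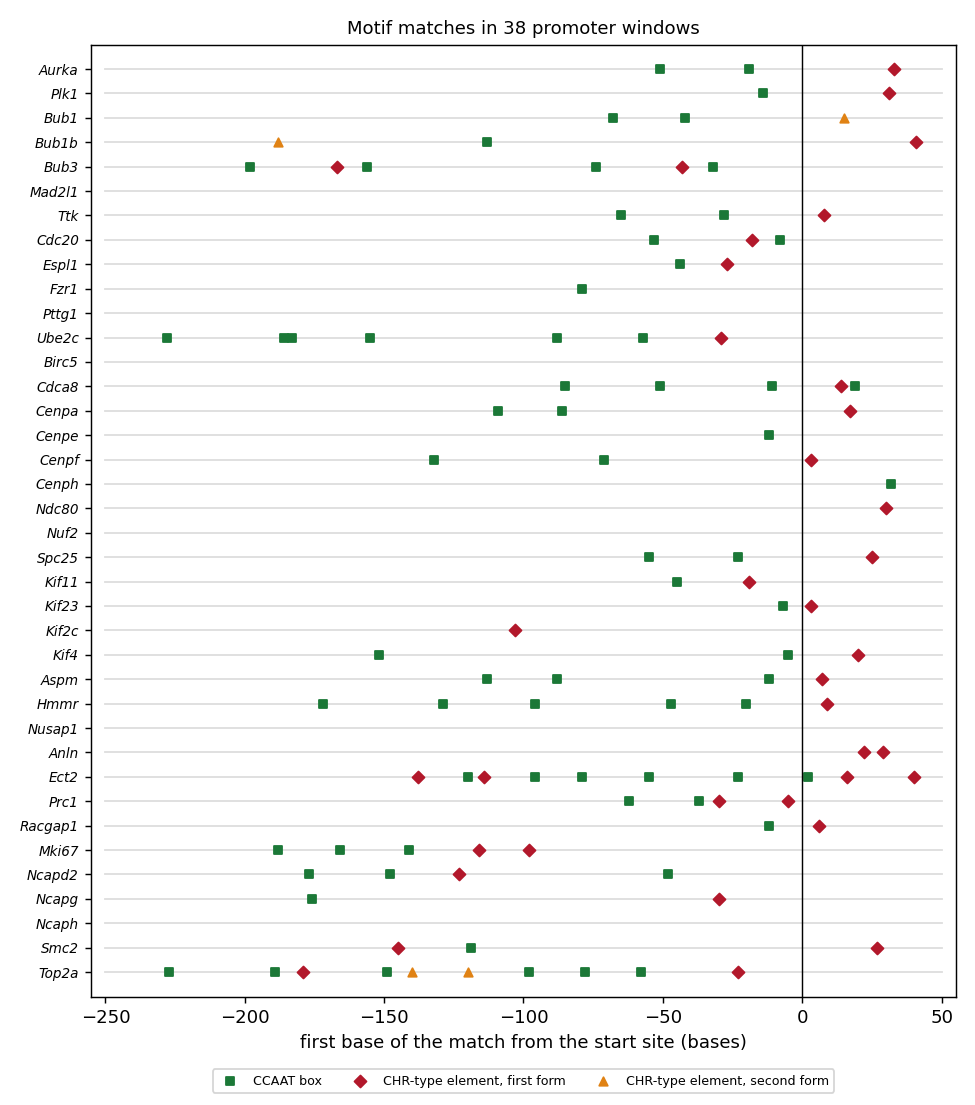
Position of motif matches (x axis, bases from the start site to the first base of the match) in the windows of 38 genes (rows, by role); green squares are CCAAT, red diamonds TTTGAA and orange triangles TTCGAA, on either strand. Genes with 2 windows (Bub3, Ect2 and Prc1) have both drawn on 1 row, and 28 of 37 red diamonds lie within 50 bases of the start.

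The kinetochore genes were read with their complexes. NDC80 is a rod of 4 subunits in which Nuf2 pairs with Ndc80 and Spc24 with Spc25. Ndc80 had log2 levels of 10.19, 10.21 and 10.17 on the Dhx9.1241 arrays, against 10.20, 10.31 and 10.19 on the Rluc.713 arrays, which overlap. Its log2 change was -0.04 (95% interval -0.16 to 0.08). Spc25 was at 10.02, 10.12 and 10.16 on the Dhx9.1241 arrays and at 10.00, 10.09 and 10.15 on the Rluc.713 arrays, a log2 change of 0.01 (interval -0.12 to 0.15). Spc24, the partner of Spc25 and not on the list of 43, had 9.59, 9.54 and 9.46 on the Dhx9.1241 arrays and 9.47, 9.50 and 9.48 on the Rluc.713 arrays (log2 change 0.05, interval -0.07 to 0.17). These 3 subunits overlapped between groups where Nuf2 did not.

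Within each array, the gap between Nuf2 and its partners was smaller in Dhx9.1241. Nuf2 minus Ndc80 was 0.96 ± 0.085 in Dhx9.1241 and 1.39 ± 0.074 in Rluc.713 (log2, SD, n = 3 each). Nuf2 minus Spc25 and Nuf2 minus Spc24 differed by -0.48 and -0.52 between the groups. These gaps are a description, since Nuf2 was singled out by its own change.

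**Figure D4:**
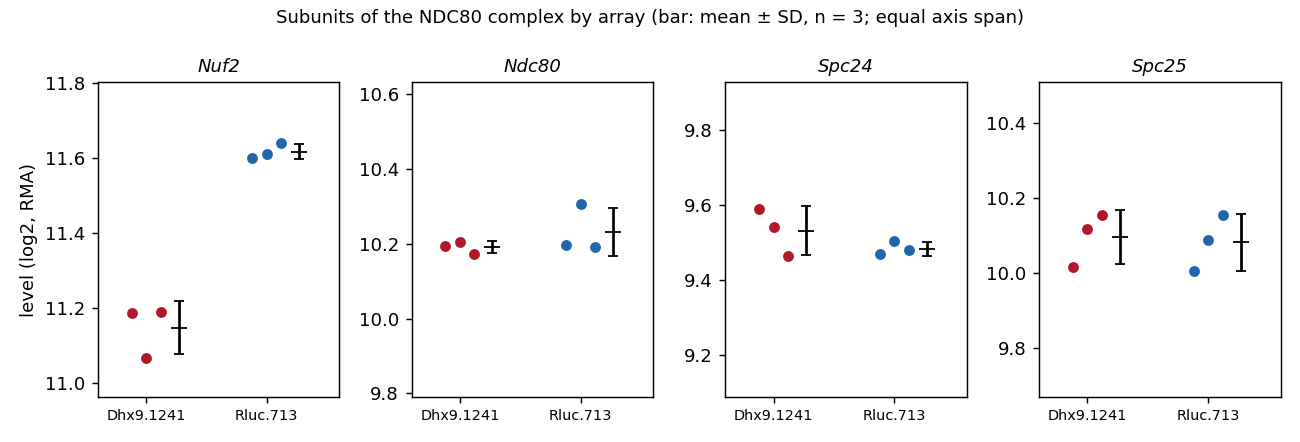
Log2 level (y axis) of the 4 NDC80 subunits on each array, Dhx9.1241 in red and Rluc.713 in blue, with bars for mean ± SD (n = 3) and the same axis span in each panel. Nuf2 lies at 11.06 to 11.19 in Dhx9.1241 and at 11.60 to 11.64 in Rluc.713, while the values of the other subunits overlap.

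Other genes of the centromere and kinetochore did not pass. Cenpa, the histone H3 variant that marks centromeres, was at 12.29, 12.24 and 12.28 on the Dhx9.1241 arrays, against 12.33, 12.35 and 12.45 on the Rluc.713 arrays. Its groups did not overlap, but the log2 change of -0.11 had an adjusted p of 0.4. Cenpf, a large protein of the outer kinetochore, stood at -0.13 (interval -0.27 to 0.02), the kinesin-like motor gene Cenpe at -0.07 and Cenph, of the inner kinetochore, at -0.03. Of the 33 other kinetochore and centromere genes measured, 31 were among the brighter genes, and 0 passed by limma. With no adjustment 2 of the 33 were higher and 3 lower at p under 0.05, beside 8.5% and 5.63% of all genes. Of the brighter genes fitted alone, 10.5% were lower at that p. The median of the 33 was -0.01. Cenpt, which links centromeric chromatin to the NDC80 complex, had the largest change of these, 10.78, 10.78 and 10.67 on the Dhx9.1241 arrays and 10.39, 10.55 and 10.49 on the Rluc.713 arrays (log2 change 0.27, adjusted p = 0.058). Knl1, the kinetochore scaffold that NDC80 joins, stood at -0.20 (adjusted p = 0.129). Cenpt passed under 6 other settings, with adjusted p-values from 0.013 to 0.0413.

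Genes of chromosome structure held the largest differences after Nuf2. Top2a, the topoisomerase that untangles sister chromatids, had log2 levels of 12.43, 12.36 and 12.50 on the Dhx9.1241 arrays, against 12.58, 12.65 and 12.69 on the Rluc.713 arrays, and its groups did not overlap. This was a log2 change of -0.21 with an SE of 0.056, an interval of -0.34 to -0.08 and an adjusted p of 0.104. Smc2, the ATPase core of condensin, was at 12.00, 11.95 and 12.08 on the Dhx9.1241 arrays and at 12.13, 12.22 and 12.19 on the Rluc.713 arrays (log2 change -0.17, adjusted p = 0.162). Its partner Smc4 was at 12.40, 12.37 and 12.50 on the Dhx9.1241 arrays and at 12.48, 12.62 and 12.62 on the Rluc.713 arrays, where Rluc.713 replicate 1 overlapped with Dhx9.1241 replicate 3 (log2 change -0.15, adjusted p = 0.302). The ATPase genes were therefore lower in the mean by similar amounts without passing the test.

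The 2 measured non-ATPase subunits of condensin I were not lower in the mean. Ncapd2 was at 12.52, 12.47 and 12.49 on the Dhx9.1241 arrays, against 12.36, 12.46 and 12.47 on the Rluc.713 arrays, and was the 1 member whose Dhx9.1241 values all lay above, by a margin smaller than the rounding of these values (log2 change 0.06, adjusted p = 0.726). Ncaph, the kleisin that closes the ring, stood at 0.01 (interval -0.12 to 0.14). Of condensin II, Ncapd3 stood at 0.10, Ncapg2 at -0.04 and Ncaph2 at -0.01, and none passed. Mki67, whose protein Ki-67 coats mitotic chromosomes and is used as a marker of dividing cells, was at 13.22, 13.15 and 13.26 on the Dhx9.1241 arrays and at 13.16, 13.29 and 13.27 on the Rluc.713 arrays. These groups overlapped, and the log2 change was -0.03 (interval -0.16 to 0.10).

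**Figure D5:**
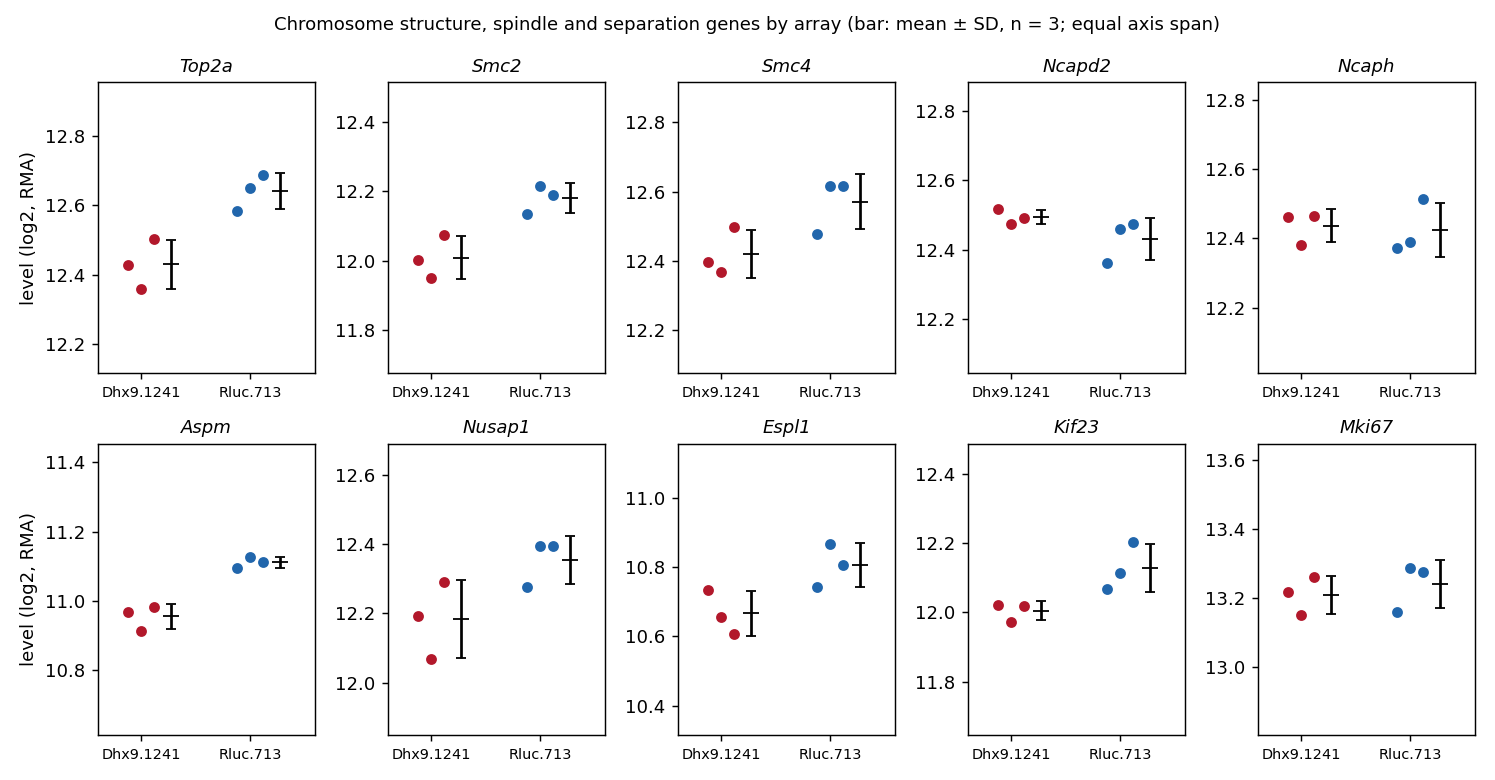
Log2 level (y axis) of 10 genes of chromosome structure, spindle and separation on each array, Dhx9.1241 in red and Rluc.713 in blue, with bars for mean ± SD (n = 3) and the same axis span in each panel. Top2a, Smc2, Aspm, Espl1 and Kif23 lie lower in Dhx9.1241 without overlap, but have adjusted p-values of 0.104 to 0.339 by limma. Ncapd2 lies higher without overlap (adjusted p = 0.726), and Mki67 overlaps.

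Among 4 spindle assembly genes, all were lower in the mean and none passed. Aspm, which focuses microtubules at the spindle pole, was at 10.97, 10.91 and 10.98 on the Dhx9.1241 arrays, against 11.10, 11.13 and 11.11 on the Rluc.713 arrays. Its values were tight within each group and did not overlap (log2 change -0.16, SE 0.046, adjusted p = 0.142). Nusap1, a microtubule-bundling protein, was at 12.19, 12.07 and 12.29 on the Dhx9.1241 arrays and at 12.28, 12.39 and 12.39 on the Rluc.713 arrays, which overlap (log2 change -0.17, adjusted p = 0.299). Tpx2, the activator of Aurora A on the spindle, stood at -0.05 and Hmmr, a microtubule-associated protein of the spindle pole, at -0.01.

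The 5 mitotic kinesins were also all lower in the mean, with a median log2 change of -0.06. Kif23, a motor of the central spindle, was at 12.02, 11.97 and 12.02 on the Dhx9.1241 arrays, against 12.07, 12.11 and 12.20 on the Rluc.713 arrays (log2 change -0.12, adjusted p = 0.339). Kif4, a chromosome-bound kinesin, was at 10.41, 10.24 and 10.36 on the Dhx9.1241 arrays and at 10.29, 10.60 and 10.56 on the Rluc.713 arrays, and its groups overlapped through Rluc.713 replicate 1 (log2 change -0.15, interval -0.35 to 0.05). Kif20a, which carries the passenger complex to the midzone, was at 12.03, 11.97 and 12.05 on the Dhx9.1241 arrays and at 12.05, 12.08 and 12.08 on the Rluc.713 arrays. That gap was narrow, and the log2 change was -0.06 (adjusted p = 0.745). The bipolar spindle motor gene Kif11 stood at -0.05 and the microtubule depolymerase gene Kif2c at -0.04.

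The kinases that trigger mitosis lay close together in both groups. Aurkb, the kinase of the chromosomal passenger complex, was at 13.08, 13.09 and 13.04 on the Dhx9.1241 arrays, against 12.99, 13.02 and 13.05 on the Rluc.713 arrays (log2 change 0.05, interval -0.06 to 0.16). Plk1 stood at 0.04 (interval -0.08 to 0.15) and Aurka, the spindle pole kinase, at -0.03 (interval -0.15 to 0.09). None passed, and each interval excludes a change as large as that of Nuf2. The partners of Aurkb in the passenger complex did not pass either. Cdca8, which encodes borealin, was at 11.24, 11.18 and 11.24 on the Dhx9.1241 arrays and at 11.23, 11.37 and 11.29 on the Rluc.713 arrays (log2 change -0.08, adjusted p = 0.66). Birc5, the gene of survivin, stood at -0.00 and the scaffold gene Incenp at 0.05.

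The 5 spindle checkpoint genes changed in neither direction by the test. Bub1, a kinase of the checkpoint, was at 12.43, 12.35 and 12.44 on the Dhx9.1241 arrays, against 12.51, 12.50 and 12.40 on the Rluc.713 arrays, which overlap (log2 change -0.06, interval -0.19 to 0.06). Mad2l1, the inhibitor of Cdc20, stood at -0.04, Bub3 at -0.02, Bub1b, the gene of BubR1, at 0.00 and the kinase gene Ttk at 0.04. Within groups these genes repeated closely: the largest SD was 0.096 in Dhx9.1241 and 0.063 in Rluc.713.

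Of 5 genes of the anaphase-promoting complex pathway and sister separation, Espl1 stood out from the rest by its unadjusted p. The separase gene was at 10.74, 10.66 and 10.61 on the Dhx9.1241 arrays, against 10.74, 10.87 and 10.81 on the Rluc.713 arrays. The highest Dhx9.1241 value lay just under the lowest Rluc.713 value, and the log2 change of -0.14 did not pass (interval -0.27 to -0.01, adjusted p = 0.308). Pttg1, the gene of its inhibitor securin, stood at -0.04. The activators Cdc20 and Fzr1 stood at 0.02 and 0.00, and Ube2c, the ubiquitin-conjugating enzyme of the complex, at 0.03.

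Genes of cytokinesis overlapped between groups throughout. Anln, an actin-binding protein of the contractile ring, was at 11.32, 11.22 and 11.36 on the Dhx9.1241 arrays, against 11.17, 11.30 and 11.28 on the Rluc.713 arrays (log2 change 0.05, interval -0.09 to 0.18). The midzone bundler gene Prc1 stood at -0.03, Ect2 at -0.00 and Racgap1, of the central spindle, at -0.03. Racgap1 varied most between the Rluc.713 arrays of these 4 genes, with an SD of 0.148 against 0.034 in Dhx9.1241.

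Beyond the 43 genes, 131 of 140 genes on 5 further mitosis lists were measured, and 3 passed, all of them higher in Dhx9.1241 cells, a share close to the 2.07% of all genes called higher. Psrc1, which encodes a microtubule-associated protein and is a known p53 target, rose to 10.91, 10.91 and 10.75 on the Dhx9.1241 arrays, against 10.46, 10.53 and 10.51 on the Rluc.713 arrays (log2 change 0.35, SE 0.059, adjusted p = 0.018). Cdc14b, a phosphatase gene whose yeast relative drives mitotic exit, rose by 0.53 (SE 0.102, adjusted p = 0.032), with 9.90, 9.68 and 9.82 on the Dhx9.1241 arrays and 9.04, 9.37 and 9.40 on the Rluc.713 arrays. Cdkn1a, the gene of the CDK inhibitor p21 and a known p53 target, rose to 12.37, 12.46 and 12.41 on the Dhx9.1241 arrays, against 11.81, 12.00 and 12.03 on the Rluc.713 arrays (log2 change 0.47, adjusted p = 0.00954). The groups of all 3 genes lay apart. The call of Psrc1 did not hold when Dhx9.1241 replicate 1 (adjusted p = 0.0977) or 2 (0.084) or Rluc.713 replicate 2 (0.0602) or 3 (0.0645) was left out, nor when replicate numbers were blocked (0.0615). Cdc14b lost it without any array but Rluc.713 replicate 1 (0.0503 to 0.143) and with the block (0.08), and Cdkn1a without Dhx9.1241 replicate 3 (0.0545).

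The count of these other genes called lower by limma was 0 with all arrays and 9 without Rluc.713 replicate 1, when 2.12% of all genes were called lower. Before adjustment, 15 of 131 were lower and 11 higher at p under 0.05, beside 5.63% and 8.5% of all genes. Of the 131 genes 128 were among the brighter genes, and of the brighter genes fitted alone 10.5% were lower at that p. Among 31 other kinesin, spindle and cytokinesis genes, Psrc1 was higher and 30 did not pass. Among 27 genes of the anaphase-promoting complex, cohesin and condensin none passed, and the cohesin gene Stag2 had the largest change (-0.18, adjusted p = 0.178). Among 19 kinases, phosphatases and cyclins of mitotic entry and exit, Cdc14b was higher and 18 did not pass. Cdk1, the main mitotic kinase, stood at -0.09 (interval -0.20 to 0.01) and its partner Ccna2 at -0.10 (interval -0.20 to 0.01), both with groups that did not overlap. Among 21 regulators of the mitotic gene programme Cdkn1a was higher and 20 did not pass. Foxm1 and Mybl2, transcription factors that switch on G2 and M phase genes, stood at 0.04 (interval -0.07 to 0.16) and 0.05 (interval -0.11 to 0.21). The median log2 change over the 131 genes was -0.01, against -0.03 over the 42.

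Genes listed as markers of other cells moved with the hairpin in part, but which cells their RNA came from was not tested. Cybb of the myeloid list (mean 12.04 in Dhx9.1241 and 12.39 in Rluc.713) was about as bright as the B cell marker Pax5 (12.34 and 12.39). So was Cd2 of the T and NK cell list (12.35 and 12.34). Of 13 myeloid markers measured, 5 were called lower, beside 1.07% of all genes (Lyz2, Csf1r, Tyrobp, Cybb and Fcer1g, log2 changes -1.31 to -0.32). Before adjustment, 6 were lower and 1 higher at p under 0.05 by limma, beside 5.63% and 8.5% of all genes. The higher one was Itgam (log2 change 0.21, adjusted p = 0.152), with every Dhx9.1241 value above every Rluc.713 value. The mean log2 level of the 13 was 8.37 to 8.38 on the Dhx9.1241 arrays and 8.59 to 8.65 on the Rluc.713 arrays. Feeder cells were represented by 19 fibroblast markers, of which 1, Cav1, was called lower (adjusted p = 0.0485 by limma), beside 1.07% of all genes. Before adjustment, 3 of the 19 (Cav1, Fn1 and Acta2) were lower and 0 higher at p under 0.05, beside 5.63% and 8.5% of all genes. The mean level of the 19 was 7.94 to 7.96 on the Dhx9.1241 arrays and 7.93 to 8.09 on the Rluc.713 arrays, highest on Rluc.713 replicate 1. Of 13 markers of T and NK cells 0 passed by limma. Before adjustment, 1 of these was higher and 0 lower at p under 0.05, beside 8.5% and 5.63% of all genes. Their mean level was 7.55 to 7.56 on the Dhx9.1241 arrays and 7.51 to 7.61 on the Rluc.713 arrays. The part of these marker sets in the values of Nuf2 and of the other mitotic genes was not tested.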

How the data were processed

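Total RNA of 6 samples, 3 with Dhx9.1241 and 3 with Rluc.713, was hybridised to Affymetrix arrays. The authors deposited log2 values per probe set. Robust multi-array average (RMA) is the method named in the submitters' processing notes; it corrects background, normalizes the arrays together and can compress folds of dim genes. Version, settings and genome build were not given in these sources. Of 21212 probe sets, 18786 had 1 gene symbol in the platform annotation, 6 had several and 2420 were unnamed here and not tested; 18775 symbols were updated by Entrez number through a RefSeq table of GRCm38.p6. For the 2 genes with several probe sets the one with the highest mean was kept, leaving 18784 genes and no filter on dim genes.

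The difference of Dhx9.1241 minus Rluc.713 was estimated per gene by lmFit and eBayes of limma 3.58.1 in R 4.3.3, without covariates, two-sided, with Benjamini-Hochberg adjustment over all genes and a threshold of 0.05; the fit was also tested on simulated data. A value said to stand at x is the log2 change, and intervals are at 95%. Every member was described, and those with an unadjusted p under 0.05 or the largest change of their role group were given by array, as were further genes of their complexes and Mki67, Cenpa, Kif20a and Ncapd2, chosen after their values were seen. Of the other lists, called genes, those with the largest change and genes fixed by name were named. The cyclin gene Ccnb1 was also fixed by name but was not analysed here. The members and lists were chosen with earlier results of these data known. Motifs were counted per gene over its RefSeq windows with Python 3.11.15. Alternatives were other normalizations, 2 filters on dim genes, other variance models, weighting of arrays, blocking on replicate number, the mean over probe sets, leaving out each array, and the shorter promoter window. Background correction could not be varied from summarised values. Precision is limited by having 3 arrays per group.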

Additional observations from a re-analysis of the deposited data

How the results depend on the processing

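The direction and call of Nuf2 held in all 15 alternative fits, and across them 25 to 35 of the 42 members were lower in the mean. The members called lower numbered 3 without genes under the median level, 3 with array weights and 4 with robust estimation and a variance trend, and 0 were called higher in any fit; 4.07%, 2.89% and 2.48% of all genes were called lower in those fits, against 1.07%. Members lying wholly below numbered 4 with each array centred on its median (8.54% of all genes) and 13 after cyclic loess (11.0%). Those wholly above numbered 0 with centring (8.13%), 2 after quantile normalization again (12.5%) and 3 after cyclic loess (12.7%). The other mitosis genes called higher and lower are given with the shares of all genes called in the same fit. They numbered 6 and 3 after quantile normalization again (2.75% and 1.88%), and 6 and 4 after cyclic loess (2.7% and 1.82%). Without genes under the median level they numbered 6 and 3 (6.48% and 4.07%). With robust estimation and a variance trend they numbered 7 and 8 (3.58% and 2.48%), and with array weights 5 and 8 (3.56% and 2.89%). Among genes at or above the 25th percentile of level 1 was called lower (1.8%). Leaving out each array in turn gave 3 to 11 members lower at an unadjusted p under 0.05 (3.83% to 8.92% of all genes). Wholly below were 8 to 18 members (10.9% to 17.0%) and wholly above 1 to 4 (12.9% to 24.1%). Of the other mitosis genes 1 to 3 were called higher (0.671% to 2.65%) and 0 to 9 lower (0.373% to 2.12%). With the replicate number as a block, 1 member was called lower (0.49% of all genes). In that fit 6 members had lower levels at p under 0.05 before adjustment (4.47%). Called higher was 1 other mitosis gene (0.916%). The deviations of same-numbered arrays correlated at -0.27, -0.34 and 0.24, so the numbers do not pair the samples. In the promoter part before the start alone, 34.2% of members held TTTGAA and 34.2% both motifs, against 18.3% and 7.0% of all genes, since many matches lie after the start.

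Members near 0, and Mybl2 of the other mitosis lists, changed sign without passing. Fzr1 stood at -0.0074 after quantile normalization again, -0.0194 with centring, -0.0023 after cyclic loess and -0.0007 with array weights, and Spc25 at -0.0078, -0.005, -0.0008 and -0.0051 under the same settings. Ect2 was at 0.0043 after quantile normalization again and 0.0055 after cyclic loess, Bub1b at -0.0191 with centring and -0.0008 with array weights, and with centring Cdc20 was at -0.0008 and Ncaph at -0.0081. Without 1 array the log2 changes ranged from -0.0541 to 0.0066 for Aurka, -0.0324 to 0.0161 for Birc5, -0.0066 to 0.014 for Bub1b, -0.0122 to 0.0376 for Cdc20, -0.1111 to 0.0233 for Cenph, -0.022 to 0.0154 for Ect2, -0.0205 to 0.0244 for Fzr1, -0.0818 to 0.0375 for Hmmr, -0.0159 to 0.1006 for Mybl2 and -0.0154 to 0.0559 for Ncaph. They ranged from -0.0553 to 0.0229 for Prc1, -0.1053 to 0.0428 for Racgap1 and -0.0243 to 0.0543 for Spc25. The cause of these changes was not tested. Arrays of 3 a group limit which small differences can pass.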
